A study of Vitis amurensis with 6 samples.

Results

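The 2 Mb at either end of each of the 19 grapevine chromosomes held 6642 of the 44710 open chromatin regions found in leaves of Vitis amurensis, or Amur grape, a wild and cold-hardy relative of cultivated grapevine. Open chromatin had been mapped by ATAC-seq, in which a transposase cuts accessible DNA and tags it with sequencing adapters. Places enriched for such cuts are termed transposase hypersensitive sites (THSs). THSs of 6 libraries were merged into regions wherever they shared at least 1 bp, the length of a chromosome was taken as the farthest THS end in any library, and a region was counted as an end region when its midpoint lay in the first or last 2000000 bp. Distances of regions from a chromosome end are those of their midpoints throughout. Of all regions, 39746 lay on chromosomes 1 to 19. The other 33104 of these are called interior regions here, and 4964 regions on unplaced or random sequences were not assigned to an end or an interior.

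The libraries came from leaves of wild-type plants grown in vitro for 1 month. The cold group was held at 4°C for 2 h (3 libraries), and control leaves were taken at 0 h, at 26°C (3 libraries). Per the study's methods, each replicate pooled leaves of 5 plants. There was no control held at 26°C for 2 h, so cold and elapsed time cannot be told apart. The study mapped reads to the grape 12X assembly, and coordinates below are those of the deposited lists, counted from 1. No genome sequence or gene annotation was used here, so the genes next to these regions are not named.

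The end of a plant chromosome carries telomere repeats that protect the DNA molecule, and next to them lies subtelomeric sequence, which is often repetitive and rich in duplicated segments. The distal arms of plant chromosomes usually hold many genes, whereas the sequence around centromeres is commonly packed with transposable elements and closed chromatin. An open site marks DNA that is free of a positioned nucleosome, as at promoters, enhancers and other regulatory elements. Uniquely mapped reads leave repeated sequence out of view, so telomere repeats themselves were not measured.

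The libraries differed in ways that bear on every count. The lists held 13350, 15694 and 13942 THSs in the cold libraries and 18770, 19537 and 13019 in the control libraries. Cold replicates 2 and 3 held far narrower THSs than the other 4 libraries: their narrowest THSs measured 111 and 106 bp, against 199 to 217 bp elsewhere. The read totals in the study's supplement were not used here, and THS numbers below were not related to sequencing depth. Narrow THSs came with 2 of the 3 cold libraries, and their part in any difference between cold and control was not tested beyond the alternatives named below.

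THSs were sparser at the chromosome ends, starts and far ends pooled, than in the interiors in every library. Starts averaged 24.5 THSs per Mb over the 6 libraries and far ends 32.5. Ends held 24.6, 31.1 and 25.6 THSs per Mb in the cold libraries and 29.6, 38.4 and 21.7 in the control libraries. Interiors held 27.4, 31.4 and 27.7 THSs per Mb in the cold libraries and 39.7, 40.5 and 27.2 in the control libraries. The gap was small in cold replicate 2, at 0.991 of the interior density, and widest in control replicate 1, at 0.746. Over the 6 libraries the density was 28.5 ± 5.94 THSs per Mb at the ends and 32.3 ± 6.22 in the interiors (SD, n = 6). The difference was −3.81 ± 3.52 THSs per Mb (exact two-sided sign-flip permutation test over 6 libraries, p = 0.03125, the smallest this test can give, adjusted p = 0.0417 over 4 measures). The 6 libraries share 1 genome, so this p, like those of the other tests of ends against interiors below, speaks of repeat libraries and not of chromosomes. With an end window of 3 Mb the difference was −3.45 (exact p = 0.0625), and with cold and control lists held to 1 common width limit it was −3.07 (exact p = 0.125).

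The lower density did not hold on every chromosome. Ends were sparser than the interior on 12 chromosomes and denser on 7. On chromosome 14 the ends averaged 18.3 THSs per Mb, against 33.1 in its interior, and on chromosome 13 they averaged 22.5, against 34.8. Chromosomes 8 and 16 ran the other way, with 29.5 and 42.7 THSs per Mb at the ends, against 23.3 and 37.9 in the interior.

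THSs at the ends ranked low in score on the whole, yet held more than their share of the highest scores. The score of a THS is the −log10 q that the peak caller gave it, and because scores were not scaled between libraries each was turned into a percentile within its own library. The median percentile at the ends was 45.0, 42.8 and 45.1 in the cold libraries and 46.5, 45.9 and 45.1 in the control libraries. Interior medians lay between 47.5 and 48.5 in all 6 libraries, above the ends of every library. The difference averaged −2.71 ± 1.11 percentile points (SD, n = 6, exact sign-flip permutation p = 0.03125, adjusted p = 0.0417). It was −1.56 with an end window of 3 Mb (exact p = 0.1875) and −0.56 among THSs scoring at least the median of all lists (exact p = 0.625).

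At the top of the score range the order turned round. Of the end THSs, 1.61, 1.39 and 1.49% in the cold libraries and 1.69, 1.34 and 1.76% in the control libraries belonged to the top 1% of scores of their library. In the interiors the same share lay between 0.842 and 0.928% in all 6 libraries, below the ends of each. The means were 1.55 ± 0.168% at the ends and 0.878 ± 0.0335% in the interiors (SD, n = 6, exact sign-flip permutation p = 0.03125, adjusted p = 0.0417). This measure was chosen after seeing the data, and its p speaks of repeat libraries only. Each library had 29 to 39 such end THSs, and 24 end regions were in the top 1% in all 6 libraries, so the libraries largely counted the same places. The excess of 0.667 percentage points was 0.449 points without the outer 100 kb (exact permutation p = 0.03125). It was also present in 6 of 6 libraries for the top 0.5, 2 and 5% of scores. For the top 10% it was present in only 2 libraries. At that cutoff the means over all 6 libraries were 8.36 ± 0.704% at the ends and 8.22 ± 0.169% in the interiors (SD).

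**Figure D1:**
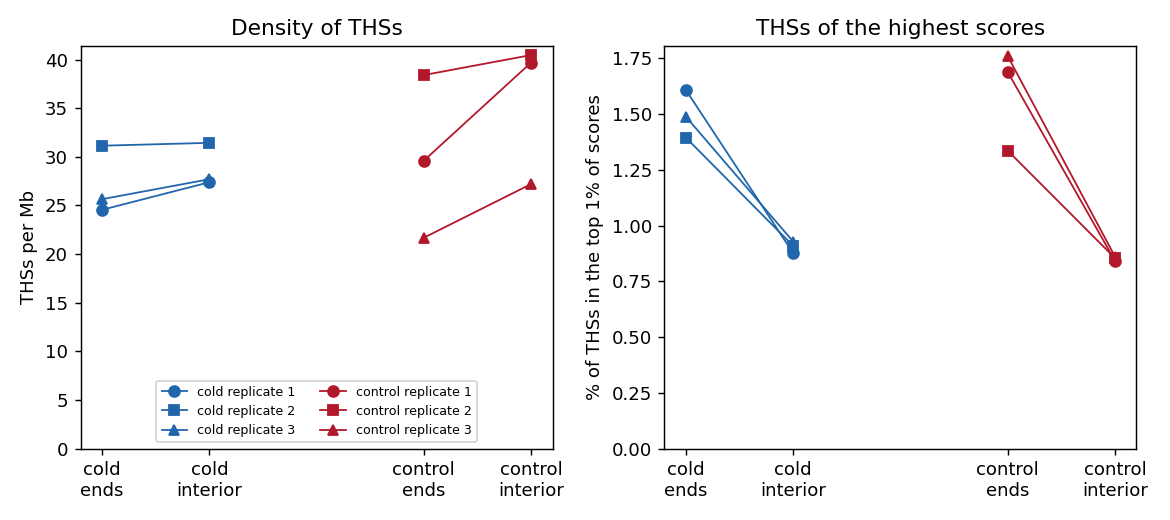
THSs per Mb (left) and percent of THSs in the top 1% of scores of their library (right), at chromosome ends and in interiors, with 1 point per library and a line joining the values of a library. Every line rises towards the interior for density and falls towards it for the highest scores, where ends hold 1.34 to 1.76% and interiors 0.842 to 0.928%.

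The width of THSs differed little between ends and interiors, with no common direction. At the ends, cold libraries had median widths of 334, 183 and 172 bp, and control libraries of 365, 376 and 341 bp. The end minus interior difference was −1.17 ± 3.31 bp (SD, n = 6, exact sign-flip permutation p = 0.469, adjusted p = 0.469), negative in 4 libraries and positive in 2. The sign of this difference changed with the setting: it was −9.08 bp with an end window of 1 Mb and 23.3 bp among THSs with scores of at least the median.

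Within the end windows, THSs were denser in the outermost 250 kb than in the 250 kb that follow. In bins of 250 kb out to 5 Mb, the first 250 kb averaged 34.4 THSs per Mb over the 6 libraries, the highest mean of the 20 bins, and the next 250 kb averaged 23.7, the lowest. The high rank of the first bin was not general: it was the densest bin in cold replicate 1 and control replicates 2 and 3, but 5 bins were denser in cold replicate 2, 5 in cold replicate 3 and 1 in control replicate 1. Its mean was 30.6 ± 3.34 in the cold libraries and 38.1 ± 9.98 in the control libraries (SD, n = 3 each). In cold, the bins from 2000 to 2250 kb (31.0), 2500 to 2750 kb (31.4) and 3500 to 3750 kb (32.0) were denser on average. The first bin held 279, 327 and 267 THSs in the cold libraries and 353, 461 and 272 in the control libraries. The second bin held 188, 235 and 186 in the cold libraries and 219, 357 and 165 in the control libraries. The first bin exceeded the second 1.48, 1.39 and 1.44 times in the cold libraries and 1.61, 1.29 and 1.65 times in the control libraries, so the 2 groups overlapped. The excess was present on both sides of the chromosomes in every library, at 1.33 to 1.78 times on the start side and 1.14 to 1.66 times on the far side. Of the 38 ends, 30 held more THSs in the first bin than in the second, 7 held fewer and 1 held the same number over the 6 libraries.

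The first 50 kb held 45.8 ± 4.50 THSs per Mb in the cold libraries and 50.5 ± 11.1 in the control libraries (SD, n = 3 each). The second 50 kb held 34.0 THSs per Mb on average over the 6 libraries. The far end is anchored on a THS by construction, because chromosome length was read from the lists, so the first 50 kb of the far side starts at a THS. The start side has no such anchor. There the first 50 kb of the 19 chromosomes held 29, 37 and 34 THSs in the cold libraries and 32, 45 and 22 in the control libraries, and the second 50 kb held 24, 31 and 25 in cold and 31, 37 and 21 in control, so that the step was nearly absent in control replicates 1 and 3. On the far side the first 50 kb held 49, 58 and 54 THSs in the cold libraries and 66, 71 and 52 in the control libraries, and the second 32, 28 and 31 in cold and 53, 50 and 25 in control. The step within the outer 100 kb was thus larger on the anchored side.

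The sparse second bin also held the lowest-scoring THSs. From 250 to 500 kb the median score percentile was 29.8, 32.8 and 33.2 in the cold libraries and 39.3, 36.2 and 30.7 in the control libraries. In each of the 6 libraries this was the lowest of the 20 bins. In 5 of 6 libraries it was also the sparsest bin, the exception being control replicate 2, where 13 bins were sparser. These ranks were taken after seeing the data and describe 1 genome, with no test. Of the 823 merged regions in the second bin, 3.28% had a THS in all 6 libraries, the lowest share of the 8 bins in the end windows, against 6.79% of the 1061 regions in the first bin and 9.59% in the bin from 1500 to 1750 kb.

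**Figure D2:**
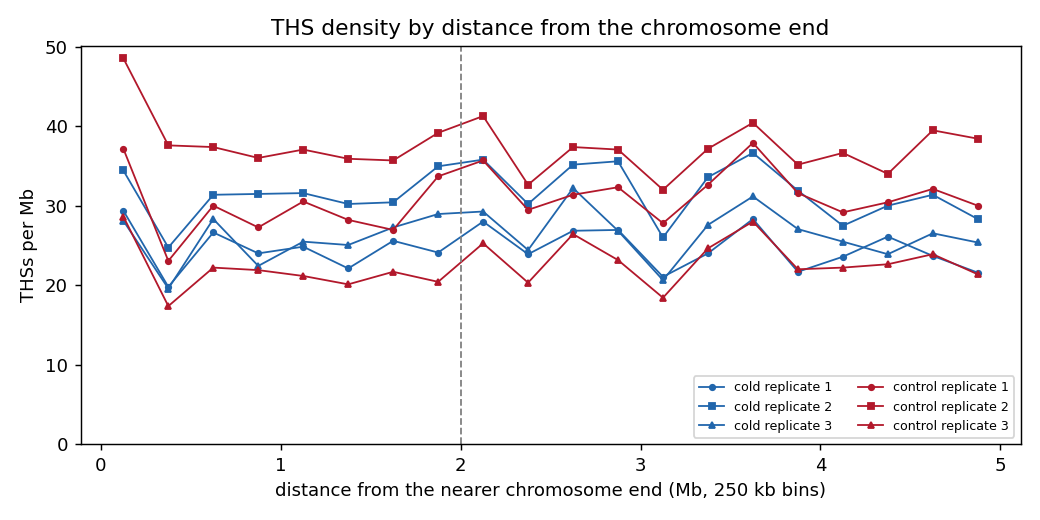
THSs per Mb in 250 kb bins by distance from the nearer chromosome end, pooled over the 38 ends, with 1 line per library and a dashed line at the 2 Mb limit of the end windows. All 6 lines drop between the first bin (mean 34.4 THSs per Mb) and the second (mean 23.7).

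The 38 ends differed widely from each other. Their mean density over the 6 libraries lay between 10.8 and 65.6 THSs per Mb, with a median of 25.6, and 167 interior windows of the same length lay between 8.17 and 67.4, with a median of 31.9. The densest end was the start of chromosome 16, with 123, 145 and 118 THSs in the cold libraries and 144, 155 and 102 in the control libraries. Of its 311 regions, 41 (13.2%) had a THS in all 6 libraries. The far end of chromosome 18 followed at 52.7 THSs per Mb, and the far end of chromosome 9 and the start of chromosome 15 each had 52.1. Each of these 4 ends held more THSs than the median end in all 6 libraries.

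The sparsest ends were the starts of chromosomes 2 and 17 and the far end of chromosome 14. The start of chromosome 2 held 17, 42 and 28 THSs in the cold libraries and 7, 25 and 11 in the control libraries. The start of chromosome 17 held 11, 33 and 32 in the cold libraries and 14, 27 and 15 in the control libraries, and the far end of chromosome 14 held 23, 39 and 26 in the cold libraries and 20, 41 and 14 in the control libraries. At these ends the libraries of 1 group differed by more than 1.5 times among themselves. The spread over the 38 ends, as a coefficient of variation of the THS number, was 58.5, 37.9 and 37.8% in the cold libraries and 70.3, 46.2 and 55.8% in the control libraries. Cold replicates 2 and 3, the libraries with narrow THSs, had the most even distribution over the ends.

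Far ends were denser than starts on 14 of 19 chromosomes, at 32.5 ± 11.7 THSs per Mb for far ends and 24.5 ± 14.7 for starts (SD over 19 chromosomes). The interiors averaged 32.3 THSs per Mb over the 6 libraries, so on average the lower density of the ends lay at the starts. The far ends held 1.40, 1.05 and 1.10 times the THSs of the starts in the cold libraries and 1.72, 1.41 and 1.38 times in the control libraries. Which chromosome arm is the long or the short was not looked up. Far ends held 3736 of the end regions and starts 2906, and 241 of them at far ends and 210 at starts had a THS in all 6 libraries.

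**Figure D3:**
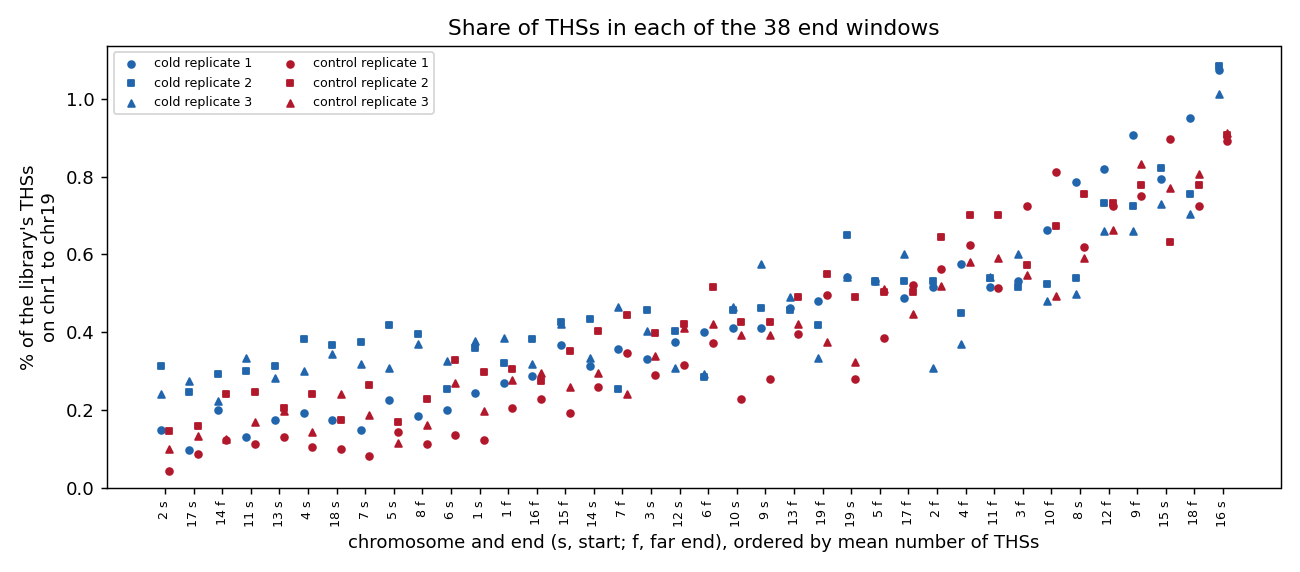
Percent of the THSs of a library on chromosomes 1 to 19 that lay in each of the 38 end windows, with 1 point per library (blue cold, red control) and the ends ordered by their mean number of THSs. The start of chromosome 16 is the highest in every library except control replicate 1, where the start of chromosome 15 is, and the start of chromosome 2 stands at the low end, and cold and control points overlap at most ends.

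The lists as deposited gave cold and control ranges that overlapped for the number, share and covered length of end THSs. The ends held 1866, 2367 and 1949 THSs in the cold libraries and 2250, 2919 and 1648 in the control libraries. The group means were 2061 ± 269 in cold and 2272 ± 636 in control (SD, n = 3 each, exact two-sided permutation p = 0.7, adjusted p = 0.7 over 5 measures). Without control replicate 2 the sign of the difference changed, to 112 more THSs in the cold libraries (exact p = 0.8). With lists cut to equal length it also changed, to 190.0 more THSs in the cold libraries, and the groups then did not overlap (exact p = 0.1). With 3 libraries against 3 the exact test cannot give a p below 0.1.

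As a share of the THSs on chromosomes 1 to 19, the ends held 16.3, 17.7 and 16.7% in the cold libraries and 13.9, 17.1 and 14.8% in the control libraries. The 2 groups overlapped, since cold replicates 1 and 3 lay below control replicate 2. The means were 16.9 ± 0.720% in cold and 15.3 ± 1.63% in control (SD, n = 3 each), a difference of 1.65 percentage points (exact permutation p = 0.3, adjusted p = 0.375). Without control replicate 2 the difference was 2.56 points, over 1.5 times as large (exact p = 0.1), and without control replicate 1 it was 0.989 (exact p = 0.5). The gap in density between ends and interiors averaged −1.73 THSs per Mb in cold libraries and −5.89 in control libraries (exact permutation p = 0.2). The groups overlapped, with gaps of −2.84, −0.294 and −2.05 in the cold libraries and −10.1, −2.06 and −5.52 in the control libraries.

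End THSs covered 0.821, 0.571 and 0.437 Mb in the cold libraries and 1.07, 1.42 and 0.727 Mb in the control libraries. Control replicate 3 lay below cold replicate 1, so the groups overlapped (0.609 ± 0.195 Mb in cold, 1.07 ± 0.347 Mb in control, exact permutation p = 0.2, adjusted p = 0.333). The covered end length as a share of all covered length on the chromosomes was 16.6, 18.2 and 17.3% in cold and 14.2, 17.2 and 14.9% in control (exact permutation p = 0.2, adjusted p = 0.333). Median end widths averaged 229.7 ± 90.5 bp in cold and 361 ± 17.9 bp in control. The groups did not overlap in width (exact permutation p = 0.1, adjusted p = 0.333), and cold replicates 2 and 3 were narrow at ends and interiors alike.

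Single ends were compared by their share of each library's THSs. The 3 cold libraries all lay above the 3 control libraries at 6 of the 38 ends (15.8%), against 10.7% of all 205 windows of 2 Mb. They all lay below at 1 end (2.63%), against 12.2% of all windows. The start of chromosome 16 held 1.07, 1.08 and 1.01% of the THSs of the cold libraries and 0.892, 0.907 and 0.913% of those of the control libraries. The start of chromosome 19 held 0.541, 0.651 and 0.541% in cold and 0.279, 0.492 and 0.322% in control, so that its highest control library came close to the cold ones. The start of chromosome 5 averaged 0.318% in cold and 0.143% in control. The other 3 ends with higher shares in cold were the start of chromosome 2 and the far ends of chromosomes 5 and 15. The far end of chromosome 4 was lower, at 0.465% in cold and 0.637% in control. These counts have no test, and ends share their libraries.

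Most end regions were seen in few libraries. Of the 6642 end regions, 4302 (64.8%) had a THS in a single library, where the share over all 44710 regions was 60.0%. The cold replicates held 12.2, 19.01 and 14.1% of these single-library end regions, and the control replicates 16.6, 28.3 and 9.74%. Control replicate 2 had the longest list and control replicate 3 the shortest. A further 1000 end regions (15.1%) had a THS in 2 libraries, 403 (6.07%) in 3, 262 (3.94%) in 4 and 224 (3.37%) in 5. The shares over all regions were 16.1, 7.26, 4.70 and 3.86%.

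A THS was present in all 6 libraries at 451 end regions (6.79%, 95% exact binomial interval 6.20 to 7.42%), where the share over all regions was 8.06%. The interior share was 7.21% (6.93 to 7.49%), so the intervals of ends and interiors overlapped. Neighbouring regions are not independent, and such intervals cover counting error only. These always-open end regions had a median width of 833 bp, against 250 bp for single-library end regions. A merged region is the union of its THSs, so its width grows with the number of lists by construction, and interior regions had 816.5 and 254 bp in the same classes. Their scores covered a wide range: 109 of the 451 lay above the 90th percentile in every library, and 124 lay below the 50th percentile in at least 1. The widest 3 end regions were always open: chr19:633724-638519 (4796 bp) scored 7.19, 6.83 and 4.401 in the cold libraries and 5.57, 8.36 and 8.28 in the control libraries, and chr12:21118942-21122863 and chr5:23192844-23196415 were 3922 and 3572 bp wide.

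The highest scores at the ends belonged to a small set of regions that were high in all libraries. There were 24 end regions in the top 1% of scores in all 6 libraries, on 13 chromosomes, which is 0.361% of end regions and compares with 72 interior regions (0.217%). The first of them, chr7:19731467-19732014, lay 1293309 bp from the far end and scored 4034, 3430 and 2460 in the cold libraries and 4396, 3837 and 5117 in the control libraries. It was 548 bp wide and above the 99.9th percentile in every library. The median score of always-open end regions was 11.8, 14.5 and 11.02 in the cold libraries and 16.9, 16.2 and 12.7 in the control libraries.

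The next regions had scores of the same order. Region chr9:229605-230278 scored 3704, 2852 and 2033 in the cold libraries and 4104, 3567 and 4661 in the control libraries. Region chr8:1407275-1407934 scored 2820, 2536 and 2034 in the cold libraries and 3101, 2820 and 3438 in the control libraries. Region chr9:21157023-21160006, the widest of the 24 at 2984 bp, scored 3044, 2387 and 1869 in the cold libraries and 3498, 3289 and 3775 in the control libraries. All 4 of these regions scored lowest in cold replicate 3, but scores are not scaled between libraries and this order was not tested.

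Region chr11:19440598-19441713 scored 2221, 2615 and 2211 in the cold libraries and 2328, 2028 and 2536 in the control libraries, so its groups overlapped. The other 5 of the 10 regions that ranked highest were chr19:51333-52151, chr10:16632502-16632898, chr8:20428931-20429378, chr15:1-466 and chr4:23396639-23396963. Region chr15:1-466 begins at the first base of its chromosome. It scored 2514, 2713 and 2562 in the cold libraries and 3085, 3055 and 2190 in the control libraries.

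Of the 24 regions, 7 lay in the first 250 kb, as did 1061 of all 6642 end regions. Of the 7, 6 lay within the outer 82 kb, a limit set after seeing the data. The outer 6 were chr15:1-466, chr10:31409-32843, chr19:51333-52151, chr2:18714590-18717413, chr17:64656-65382 and chr14:30191984-30192472, the last at 81336 bp from its end. They lay on 6 different chromosomes, at 4 starts and 2 far ends.

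**Figure D4:**
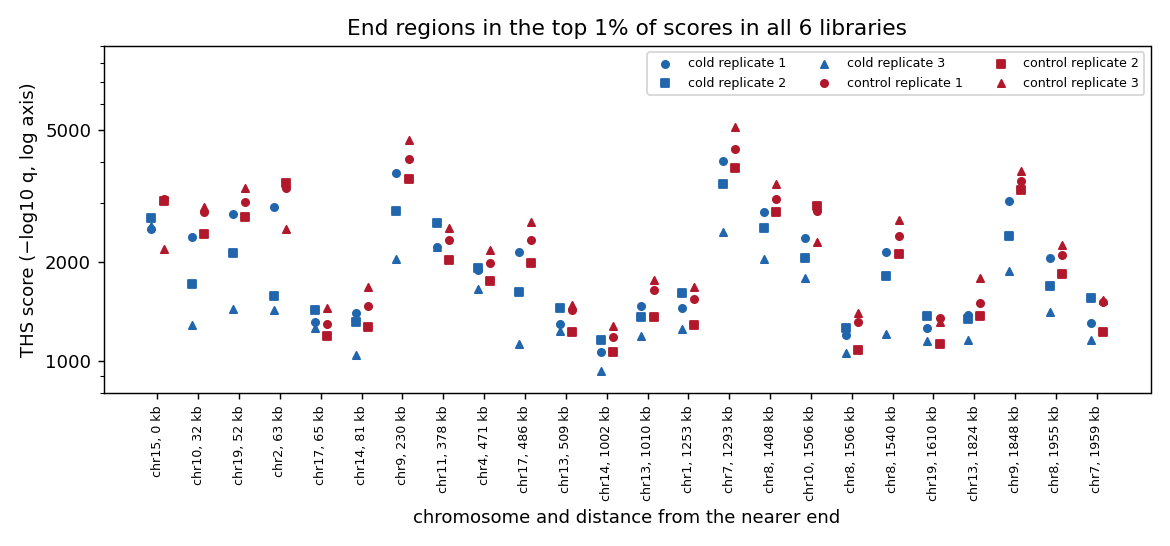
THS scores (−log10 q, log axis) of the 24 end regions in the top 1% of scores in all 6 libraries, ordered by distance from the nearer chromosome end in kb, with 1 point per library (blue cold, red control). Scores reach 5117 at the region of chromosome 7 that lies 1293309 bp from its end, and cold and control points overlap at many regions.

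The limits of many of these high-scoring regions hardly moved from library to library. Among always-open end regions with a single THS in each list, 11 of 22 in the top 1% (50%) had both their start and their end within 10 bp in all 6 lists, against 20 of 254 of the others (7.87%). Region chr1:1252838-1253106 (269 bp) and region chr13:508664-508892 (229 bp) were called with identical limits in all 6 lists. Region chr7:19731467-19732014 varied in width between 545 and 548 bp. Some other regions in the top 1% were wider in cold replicates 2 and 3, and some were narrower. Region chr7:19065868-19066279 was wider there, at 299, 411 and 395 bp in the cold libraries and 294, 292 and 294 bp in control. The next 2 regions were narrower there. Region chr9:21157023-21160006 had widths of 2842, 1465 and 1426 bp in the cold libraries and 2937, 2841 and 2848 bp in the control libraries, and region chr8:1539603-1540892 had 1285, 862 and 842 bp in cold and 1280, 1277 and 1288 bp in control. Interior regions showed the same contrast, at 27 of 61 (44.3%) in the top 1% and 70 of 1419 (4.93%) of the others, so it was not particular to the ends.

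By its midpoint, the region nearest to each chromosome end lay 233 to 94347 bp from the first base at the starts (median 10547 bp). At the far ends its midpoint lay 57 to 796 bp from the last THS base. Each of these far-end regions ends at that base by construction, so its distance reflects its own width alone. The 5 outermost regions by midpoint were all at far ends, and are thus the narrowest of these far-end regions. All were THSs of cold replicate 2 or 3. Regions chr6:21504856-21504968, chr19:24014916-24015045 and chr8:22383681-22383837 were called in cold replicate 2 alone, with scores of 3.47, 4.86 and 3.47. Region chr5:25021443-25021617 scored 33.1 and 23.1 in cold replicates 2 and 3. Region chr1:23003491-23003635 scored 199 and 201 in the same libraries and had no THS in the other 4. Both libraries are those with narrow THSs, and at far ends a ranking by midpoint picks narrow regions by construction. Whether narrow THSs bear on the calls themselves was not tested.

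Of the 38 outermost regions, 12 had a THS in all 6 libraries and 14 in 1 library. Over all regions these classes held 8.06% and 60.0%. Region chr11:19818612-19818861 had its midpoint at 126 bp from its far end. It scored 7.14, 21.7 and 15.2 in the cold libraries and 10.8, 6.80 and 6.37 in the control libraries. Region chr12:22700449-22700724, at 139 bp, scored 119, 129 and 96.1 in the cold libraries and 157, 170.0 and 137 in the control libraries. Region chr15:1-466 was the outermost open region at any start. The starts of its THSs lay within 3 bp of each other in the 6 lists.

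Cold-only regions, which every cold library called and no control library did, numbered 16 at the ends. This was 0.241% of end regions (exact interval 0.138 to 0.391%), where the share over all regions was 0.183%. The opposite pattern (control-only) was found at 37 end regions, or 0.557% (0.393 to 0.767%), where the share over all regions was 1.04%. The interior shares were 0.178% for cold-only and 1.13% for control-only. Control-only regions thus outnumbered cold-only ones 2.31 times at the ends and 6.34 times in the interiors, a contrast given with no test. At the ends this excess was lost with lists cut to equal length, at 20 cold-only and 19 control-only regions. Interior regions were not counted at equal length, so whether the contrast with the interiors remained is not known. For a single region, 3 libraries against 3 cannot reach an exact p below 0.1.

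Both counts moved with the setting. Leaving out a library loosens the rule for these classes, so higher counts are partly built in. The number of cold-only end regions was 183 without cold replicate 1, 33 without cold replicate 2 and 47 without cold replicate 3, and it was 30, 39 and 24 without control replicates 1, 2 and 3. With 1 common width limit for all lists, 3 cold-only and 69 control-only end regions were counted. This setting joined THSs lying within 217 bp of each other and dropped those still narrower than 217 bp. Median end widths were 183 and 172 bp in cold replicates 2 and 3, so fewer cold-only and more control-only regions are partly built in. The number of control-only end regions was 98, 59 and 49 without cold replicates 1, 2 and 3, and 127, 99 and 198 without control replicates 1, 2 and 3.

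The 16 cold-only regions lay at 12 ends, 11 of them on far sides, and were 250 to 713 bp wide. Region chr3:19332661-19332972 lay 9010 bp from its far end and scored 7.19, 17.3 and 20.3 in the cold libraries. Its THSs were 280, 222 and 242 bp wide, and the nearest control THS lay 578 bp away. Region chr4:22429500-22429788 had the highest lowest percentile, 81.2, with scores of 15.2, 16.4 and 21.9, but THS widths of only 115 and 132 bp in cold replicates 2 and 3. Region chr16:1423598-1423855 scored 7.17, 14.8 and 11.2, with THS widths of 258, 114 and 121 bp and a control THS 350 bp away.

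The other named cold-only regions had lower scores. Region chr9:968104-968423 scored 5.09, 7.19 and 5.52, with the nearest control THS 23504 bp away. Region chr15:19850781-19851270 scored 2.73, 6.38 and 8.15, with THSs of 463, 476 and 467 bp in the 3 cold libraries and the nearest control THS 25622 bp away. It was thus wide in every cold library, unlike the chromosome 4 and 16 regions above. Regions chr4:23739068-23739397, chr2:16779077-16779427 and chr1:21314142-21314557 completed the 8, with scores between 3.20 and 10.6. Of the 16, 6 had a control THS within 1000 bp.

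The 37 control-only regions lay at 18 ends, 25 of them on far sides, and were 289 to 2349 bp wide. Region chr12:1901769-1902207 scored 6.57, 12.9 and 6.37 in the control libraries and lay 9310 bp from the nearest cold THS. Region chr11:18081682-18081970 scored 6.89, 12.2 and 6.37, and its nearest cold THS lay 202 bp away. Region chr13:23177722-23178166 scored 5.30, 6.80 and 5.00, with a cold THS at 216 bp. At the chromosome 11 and 13 regions, therefore, a THS of the cold group stood close by.

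Region chr9:22830996-22831623 scored 7.21, 4.01 and 13.5 in the control libraries, with the nearest cold THS at 7707 bp. Region chr3:17570810-17572803, 1994 bp wide, scored 5.80, 4.01 and 5.27, with a cold THS at 11778 bp. Region chr10:17888972-17891320 was the widest of the 37 at 2349 bp and scored 4.13, 6.17 and 5.67. Regions chr2:18033324-18034641 and chr5:23105512-23106307 completed the 8, the last tied in rank with chr9:22011669-22012678. Of the 37, 12 had a cold THS within 1000 bp, and the median distance was 2200 bp, against 2022.5 bp from cold-only regions to the nearest control THS.

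**Figure D5:**
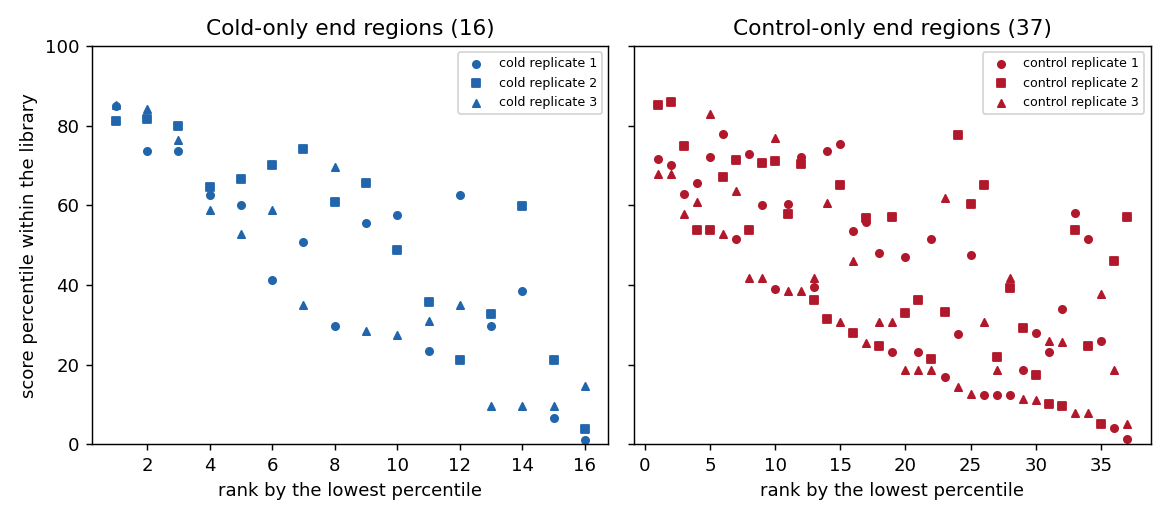
Score percentile within the library for each of the 16 cold-only (left) and 37 control-only (right) end regions, ranked by the lowest of their 3 percentiles, with 1 point per library of the group that has the THSs. The lowest percentiles run between 1.06 and 81.2 for cold-only and between 1.40 and 67.9 for control-only regions.

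Libraries shared end THSs about as well as interior ones. As a measure, the Jaccard index of 2 lists was taken, the length covered in both lists over the length covered in either. At the ends it was 0.253 ± 0.0513 for pairs of cold libraries, 0.280 ± 0.0256 for pairs of control libraries (SD over 3 pairs each) and 0.234 ± 0.0511 for the 9 pairs of a cold and a control library. In the interiors the same indices were 0.249 ± 0.0575, 0.285 ± 0.0142 and 0.2203 ± 0.0540. The end value was the higher in 11 of the 15 pairs, and pairs share libraries, so no test is given. The pairs did not follow the groups. At the ends, cold replicate 1 had an index of 0.238 and 0.211 with cold replicates 2 and 3, but 0.308, 0.268 and 0.302 with the control libraries, while cold replicates 2 and 3, the libraries with narrow THSs, had 0.310 with each other.

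The limit of 2 Mb fell among ordinary regions. The last region inside it at each end lay 162 to 90587 bp from the limit, 2 of these 38 had a THS in all 6 libraries and 23 in 1 library, and their median highest percentile was 50.1. The first region outside lay 402 to 74894 bp beyond it, with 3 in all 6 libraries, 27 in 1 library and a median of 45.9.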

How the data were processed

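ATAC-seq was performed on leaves of Amur grape. Per the study's methods, the authors trimmed reads with Cutadapt, aligned the reads to the grape 12X genome by BWA, kept unique alignments without duplicates and called THSs in each library with MACS2 (q threshold 0.05, no model, extension of 200 bp). Versions were not given in the sources used. The study gives 1 extension for all libraries, but the narrowest THS measured 106 to 217 bp depending on the library. The reason was not tested. Keeping unique alignments alone removes repeats, which bears on chromosome ends.

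The deposited score of each THS was taken for a −log10 q-value from the authors' peak caller. The lists carry no column names, and this was inferred from the lowest scores (1.30 to 1.31, where −log10 of 0.05 is 1.30). No counts were used, so presence of a THS was compared.

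Midpoints, merged regions and end windows were computed in Python 3.11.15 with numpy 2.4.6 and pandas 2.3.3, and plots drawn with matplotlib 3.10.9. A percentile is the rank of a score in its library. Cold was compared with control by exact permutation over libraries (20 assignments), and ends with interiors by exact sign flips within libraries (64 patterns), all two-sided, with Benjamini-Hochberg adjustment over 5 and 4 measures. Intervals are 95% exact binomial ones (scipy 1.17.1). The merging and counting were tested on simulated lists.

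Named regions are the 8 cold-only, 8 control-only and 10 always-open regions with the highest value of their lowest percentile, the 5 outermost and 3 widest regions and the 3 densest and sparsest ends (4 where tied). Other regions named, such as those in the outer 82 kb, with fixed limits or outermost in all libraries, were picked after their values were seen. The members, the measures and these rules were chosen with earlier results of these data known. Alternatives were end windows of 1 and 3 Mb, a stricter score (the median of all lists, 4.13), lists of equal length (13019 THSs), a common limit of 217 bp, the 4 libraries with wide THSs, 50% coverage, windows of 200 bp, presence in at least 2 of 3 libraries, the middle 4 Mb of chromosomes as interior, a replicate block and omission of each library in turn. The common limit joined THSs lying within 217 bp of each other and then dropped those narrower than 217 bp. The top 1% measure, the settings without the outer 250 kb and, for ends against interiors, without the outer 100 kb were added after seeing the data.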

Additional observations from a re-analysis of the deposited data

How the results depend on the processing

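Across 164 alternative values, 142 of them planned, 92 kept their direction and side of the threshold, or for counts their size. The measures of cold against control could not change side, since their exact test cannot give a p below 0.1. For them only the direction could change, so the number 92 is no measure of robustness. End density minus interior density (main value −3.81 THSs per Mb) was −3.45 with windows of 3 Mb, −3.07 with the common limit and −5.12 in the 4 libraries with wide THSs, none of them past the threshold, and lay between −4.51 and −2.55 with a library left out. The percentile difference (−2.71) was −1.56 with 3 Mb, −0.56 with the stricter score, −3.12 with equal lists and −2.24 in the 4 libraries, with −2.95 to −2.29 when a library was left out. The excess in the top 1% (0.667 points) was 0.740 in the 4 libraries and 0.621 to 0.704 with a library left out. It was smaller but past the threshold without the outer 100 kb (0.449) or 250 kb (0.485) and with 3 Mb (0.499), and was 0.810 with equal lists. With libraries left out the 3 measures fell short of the threshold by construction, since sign flips of 5 libraries cannot give an exact p below 0.0625 and of 4 below 0.125. For the other settings the cause was not tested. The width difference (−1.17 bp) was −9.08 with 1 Mb (exact permutation p = 0.03125) and turned positive at 1.75 with 3 Mb, 23.3 with the stricter score, 1.83 with equal lists, 0.83 with the common limit, 1.33 without the outer 250 kb and 0.50 with the middle 4 Mb as interior.

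The number of end THSs (cold minus control, −212) was 190.0 with equal lists (exact permutation p = 0.1) and −524 to 112 with a library left out. Cold-only end regions (16) numbered 6 with 1 Mb, 7 with the stricter score, 3 with the common limit, 20 with equal lists, 590 in the 4 libraries (1 cold library against 3 controls), 7 with 50% coverage, 232 with presence in at least 2 of 3 libraries and 24 to 183 with a library left out. Control-only end regions (37) numbered 12 with 1 Mb, 66 with 3 Mb, 17 with the stricter score, 19 with equal lists, 69 with the common limit, 98 in the 4 libraries, 58 with 50% coverage, 343 with at least 2 of 3 and 49 to 198 with a library left out. The share of end regions open in all libraries (6.79%) was 5.59% with 1 Mb, 7.47% with 3 Mb, 14.7% with the stricter score, 8.64% with equal lists, 12.6% in the 4 libraries, 2.82% with 50% coverage, 4.64% with windows of 200 bp and 7.63 to 8.79% with a library left out.

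A replicate block left the difference in end share at 1.65 points (exact permutation p = 0.25, the smallest 3 pairs can give). Same-numbered libraries correlated at 0.37, 0.032 and 0.238 in their deviations over the 38 ends. Libraries of different numbers were not compared, so these values cannot decide whether the numbers pair libraries. The numbers were not taken to pair them, because the sample titles do not state that they do. Read depth was not used, so a region without a THS in a library may have been open below the calling threshold.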
